A study of Homo sapiens with 12 samples.

Results

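The E2F and RB family transcripts were followed in wild-type (WT) and PARP3-/- A549 cells with and without pyridostatin. The members were chosen by gene name as the E2F transcription factors E2F1, E2F2, E2F3, E2F4, E2F5, E2F7 and E2F8 and the pocket proteins RB1, RBL1 and RBL2. These are 10 of the 25365 gene names in the table, and all 10 passed the expression filter (an average FPKM of 1 or more across all 12 libraries) that left 11881 genes for testing. FPKM counts fragments per transcript length and per mapped read, so levels can be compared between genes per length. After 24 h of 1 μM pyridostatin, E2F1, E2F2, E2F5 and E2F8 were lower, at 72.2% to 84.5% of their vehicle level with the genotypes averaged, and no member passed the test as higher. The pocket protein transcripts did not pass the test in any comparison.

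The cells are A549, an epithelial line from a human lung adenocarcinoma, and they were grown in DMEM with serum. WT and PARP3-/- cells received either the vehicle DMSO or 1 μM pyridostatin, a small molecule that stabilizes G4 DNA, for 24 h, which gives 4 groups of 3 libraries each. The PARP3-/- cells were made with Cas9 guides that remove a piece of PARP3 and were then cloned by dilution, so a difference between genotypes cannot be told apart from a difference between a clone and its parent line. PARP3 transcript was not lower in the libraries labelled PARP3-/-. It was at 3.83, 3.40 and 3.96 FPKM with vehicle in the WT libraries and at 4.92, 4.07 and 4.25 FPKM in those labelled PARP3-/-, and a deleted piece need not lower the level of the whole transcript, so this value does not check the labels. The paper describes the RNA-seq as done in biological triplicate. Nothing in the labels ties same-numbered libraries to a shared day or culture. In the main fit each p-value sets a group difference against the spread between libraries, estimated over all 4 groups.

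E2F factors bind DNA with a DP partner and set the transcription of genes for S phase and mitosis. In resting and early G1 cells the pocket proteins (RB1, and its relatives RBL1, also called p107, and RBL2, also called p130) bind E2F factors and recruit corepressors to their target genes. Cyclin-dependent kinases phosphorylate the pocket proteins and release E2F, CDK inhibitors such as CDKN1A (p21) oppose this step, and RBL1 or RBL2 with E2F4 or E2F5 and the MuvB core form the repressive DREAM complex. E2F1, E2F2 and E2F3 are the activating members, E2F4 and E2F5 act mainly with pocket proteins as repressors, and E2F7 and E2F8 are atypical members that repress without a DP partner. E2F1, E2F2, E2F7, E2F8 and RBL1 are themselves known as E2F target genes.

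Promoter sequences show which of the members carry the letters that E2F factors are known to bind. RefSeq promoters on GRCh38.p14, covering 250 bases before and 50 after a start site, were matched by symbol for 8 of the 10 members. E2F5 and E2F8 had no entry. The motif searched was TTTCCCGC, TTTCGCGC, TTTGCCGC or TTTGGCGC on either strand. It was found in 4 of the 8 (E2F1, E2F2, E2F3 and RBL1), and in 7.02% of the 8645 tested genes with a promoter. The last 70 bases before the start site of those 4 genes are shown, 5′ to 3′ on the strand of the gene, with the motif in capitals.
E2F1, chr20:33686386-33686455, minus strand: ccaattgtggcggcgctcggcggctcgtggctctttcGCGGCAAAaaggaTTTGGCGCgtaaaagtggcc
E2F2, chr1:23531234-23531303, minus strand: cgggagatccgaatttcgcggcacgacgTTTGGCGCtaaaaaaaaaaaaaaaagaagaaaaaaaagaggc
E2F3, chr6:20401809-20401878, plus strand: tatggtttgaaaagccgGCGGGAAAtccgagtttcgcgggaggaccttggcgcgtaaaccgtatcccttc
RBL1, chr20:37095998-37096067, minus strand: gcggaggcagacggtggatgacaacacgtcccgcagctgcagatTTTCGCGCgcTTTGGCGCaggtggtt

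E2F1 and RBL1 each held the motif at 2 positions, and E2F2 and E2F3 at 1. In E2F1 the matches began 33 and 20 bases before the start site, the first of them on the opposite strand, and in RBL1 they began 26 and 16 bases before it. The E2F2 match began 42 bases before the start site and the E2F3 match 53 bases before it, on the opposite strand. The first of the 2 E2F3 entries also held TTTGAA, the letters of the CHR element that MuvB complexes bind, 65 bases before the start site, and so did RBL2, 24 bases after it. Promoters of 13.4% of the tested genes held TTTGAA on either strand. Because pyridostatin acts on G4 DNA, the same windows were searched for 4 runs of at least 3 G with 1 to 7 bases between runs, on either strand. This pattern was found in E2F2, beginning 134 bases before the start site, and in the second E2F3 entry, against 41.6% of tested genes. No E2F match overlapped a TTTGAA or a G4 match in the members. A match describes letters in the window and not a bound site. Whether these matches bear on the changes with pyridostatin was not tested.

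E2F4 was the most abundant member and E2F2 the least abundant in all 4 groups. In WT cells with vehicle E2F4 stood at 36.4 ± 2.61 FPKM (SD, n = 3), E2F1 at 25.0 ± 2.23 and E2F5 at 14.1 ± 0.0359, and no library of one reached the range of the next. RB1 (11.8 ± 2.07), RBL2 (11.2 ± 1.73) and RBL1 (9.95 ± 2.05) followed with overlapping ranges, as did E2F3 (7.57 ± 1.13) and E2F8 (5.96 ± 0.718). E2F7 at 4.09 ± 0.653 and E2F2 at 3.37 ± 0.0866 FPKM closed the order, again overlapping. Replicate 2 accounts for these overlaps, since without it no neighbours overlapped in this group. In the libraries labelled PARP3-/- with vehicle the order of the 10 members was the same. With pyridostatin the mean of RBL2 followed E2F4 and E2F1 in both genotypes, at 12.6 ± 0.773 FPKM in WT and 13.7 ± 0.176 in PARP3-/-. The mean of E2F7 stood above that of E2F8. In WT the range of RBL2 overlapped that of E2F5 next to it, and the range of E2F7 overlapped that of E2F8. In PARP3-/- RBL2 and E2F7 each lay apart from the next member.

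1 library stood apart in a way that touches the members. In WT vehicle replicate 2, long transcripts were low and short ones high relative to the mean of the other libraries of the group. Spearman's rho was -0.61 between a gene's deviation from that mean and the length of its longest transcript across 11132 genes. These genes share a library and are not independent, and rho lay between -0.20 and 0.18 in the 9 libraries of the other groups. The other WT vehicle libraries (0.54 and 0.51) mirror it because the mean that each is set against includes replicate 2. RBL1, RB1, RBL2, E2F3 and E2F7 have longest transcripts of 4749 to 5740 bases. In this library they lay 0.32 to 0.50 below the mean of the other WT vehicle libraries on the log2(FPKM + 1) scale, and E2F8 (3519 bases) lay 0.26 below it. E2F1 (2503 bases) lay 0.20 above it and E2F4 (2615 bases) 0.17 above it. E2F2 (5191 bases) and E2F5 (5042 bases), although long, deviated by only 0.05 and 0.01. The median deviation of all genes in this library was 0.0013 at 3000 to 4000 bases, -0.07 at 4000 to 5000 and -0.11 at 5000 to 6000. RBL1, RB1, RBL2, E2F3, E2F7 and E2F8 thus lay further below than the median gene of their length. Values without this library are given beside the calls that it ends or makes and the values that it moves most.

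**Figure D1:**
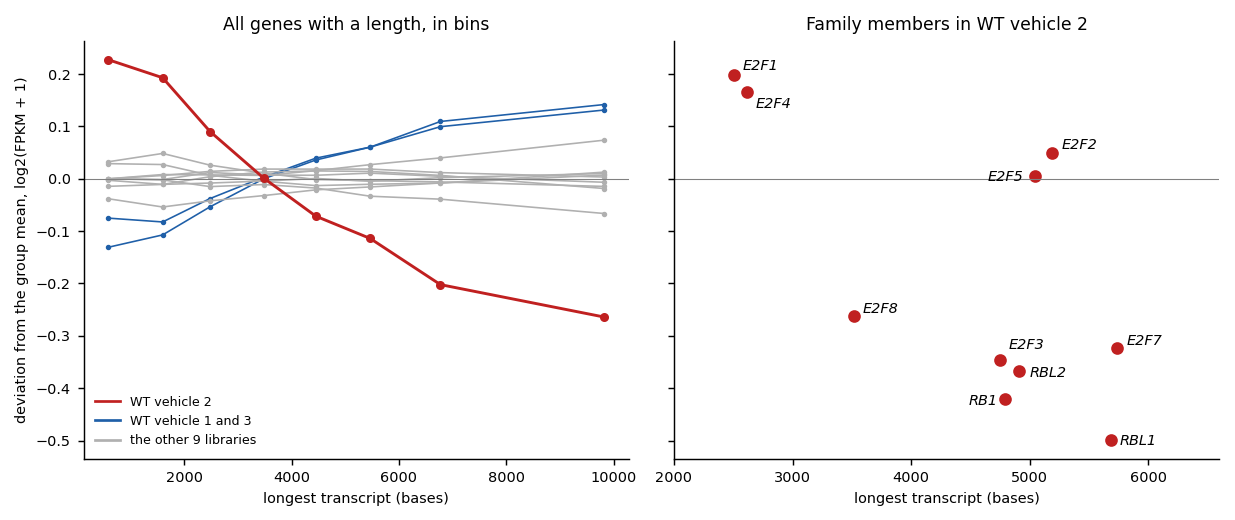
Deviation of each library from the mean of the other libraries of its group, in log2(FPKM + 1), against the longest transcript in bases, as medians of genes binned by length for all 12 libraries (left) and for the 10 members in WT vehicle replicate 2 (right). The red line of WT vehicle replicate 2 falls from 0.23 in the shortest bin to -0.26 in the longest, and RBL1, RB1 and RBL2 lie at -0.50, -0.42 and -0.37.

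E2F1, the activator that drives entry into S phase, fell with pyridostatin in both genotypes. It measured 23.1, 27.5 and 24.6 FPKM in WT libraries with vehicle and 17.9, 18.2 and 18.5 FPKM with pyridostatin. In the libraries labelled PARP3-/- it measured 24.6, 23.9 and 22.8 FPKM with vehicle and 18.5, 19.0 and 16.5 FPKM with pyridostatin. All 6 treated libraries lay below all 6 vehicle libraries. Its difference in log2(FPKM + 1) was -0.44 in WT (SE 0.07, adjusted p = 0.0047, limma) and -0.39 in PARP3-/- (SE 0.07, adjusted p = 0.0080), and its mean FPKM was 72.7% and 75.7% of vehicle. Without WT vehicle replicate 2, the highest library, the WT difference was smaller, at -0.37 (adjusted p = 0.0071). With only the libraries of the comparison in the fit, the WT difference did not pass (adjusted p = 0.072).

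E2F2, a further activator and the member with the lowest level, fell by a similar proportion. The WT libraries held 3.31, 3.47 and 3.33 FPKM with vehicle and 2.46, 2.47 and 2.48 FPKM with pyridostatin. The libraries labelled PARP3-/- held 2.85, 3.04 and 3.16 FPKM with vehicle and 2.17, 2.17 and 2.07 FPKM with pyridostatin. The groups did not overlap, and the treated WT replicates, each with about 349 to 420 reads of this gene, had an SD of 0.00688 FPKM. Counting alone would give an SD of about 5.95% at 282 reads, the fewest of E2F2 in any library. The SD of the treated WT replicates lay well below such an error and is not read as precision. E2F2 differed by -0.33 in WT (SE 0.05, adjusted p = 0.0027) and by -0.36 in PARP3-/- (SE 0.05, adjusted p = 0.0016), which is 73.3% and 70.8% of vehicle in mean FPKM. With only the libraries of the comparison in the fit, E2F2 did not pass in WT (adjusted p = 0.054). Because the pseudocount of 1 shrinks differences of low genes, the log2 values of E2F2 understate this change.

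E2F8, an atypical repressor, also fell in each genotype. Its FPKM were 6.48, 5.15 and 6.26 with vehicle and 4.07, 4.57 and 4.60 with pyridostatin in WT, and 5.40, 5.29 and 4.81 against 3.61, 3.64 and 3.93 in PARP3-/-. Treated libraries lay below vehicle libraries within each genotype. The differences were -0.36 in WT (SE 0.08, adjusted p = 0.0277) and -0.38 in PARP3-/- (SE 0.08, adjusted p = 0.0178), and without WT vehicle replicate 2 the WT difference was -0.45 (adjusted p = 0.0034). The calls within 1 genotype were less firm than for E2F1 and E2F2: over the alternatives tried the adjusted p of E2F8 reached 0.20 in WT and 0.072 in PARP3-/-.

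E2F5, a partner of the pocket proteins, was lower to a smaller extent. WT libraries with vehicle were at 14.1 FPKM in all 3 replicates, and those with pyridostatin at 12.3, 13.0 and 10.2 FPKM. In PARP3-/- it was at 13.9, 13.4 and 13.6 FPKM with vehicle and at 11.1, 12.1 and 11.5 FPKM with pyridostatin. Treated and vehicle libraries did not overlap in either genotype, but the test within a genotype was missed, at -0.24 in WT (adjusted p = 0.081) and -0.22 in PARP3-/- (adjusted p = 0.099). With both genotypes averaged the difference of -0.23 passed (SE 0.05, adjusted p = 0.0110).

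E2F7, the atypical relative of E2F8, measured 4.61, 3.36 and 4.30 FPKM with vehicle and 5.11, 4.69 and 4.16 FPKM with pyridostatin in WT, where the groups overlapped. In PARP3-/- the values were 3.86, 4.03 and 3.91 FPKM with vehicle and 4.43, 4.83 and 5.08 FPKM with pyridostatin, without overlap. The difference over both genotypes was 0.19 (95% interval 0.05 to 0.34, adjusted p = 0.079), so E2F7 did not pass. Leaving out WT vehicle replicate 1 gave 0.23 (adjusted p = 0.041), and leaving out replicate 2 gave 0.14 (adjusted p = 0.078). Within PARP3-/- the difference of 0.23 (adjusted p = 0.20) had an adjusted p of 0.049 when WT vehicle replicate 2 was left out of the model.

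E2F3 and E2F4 did not pass in any pyridostatin comparison. E2F3, the remaining activator, ranged from 6.26 to 8.23 FPKM with vehicle and from 6.79 to 7.72 FPKM with pyridostatin over both genotypes, with a difference of -0.04 (95% interval -0.17 to 0.10, adjusted p = 0.72). Without WT vehicle replicate 2 this became -0.10 (adjusted p = 0.093), and the WT difference of -0.03 became -0.15 (adjusted p = 0.14). E2F4 ranged from 34.3 to 39.3 FPKM with vehicle and from 36.3 to 42.5 with pyridostatin, a difference of 0.08 (95% interval -0.00079 to 0.17, adjusted p = 0.18) that without WT vehicle replicate 2 became 0.11 (adjusted p = 0.032) and under quantile normalization 0.11 (adjusted p = 0.039).

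**Figure D2:**
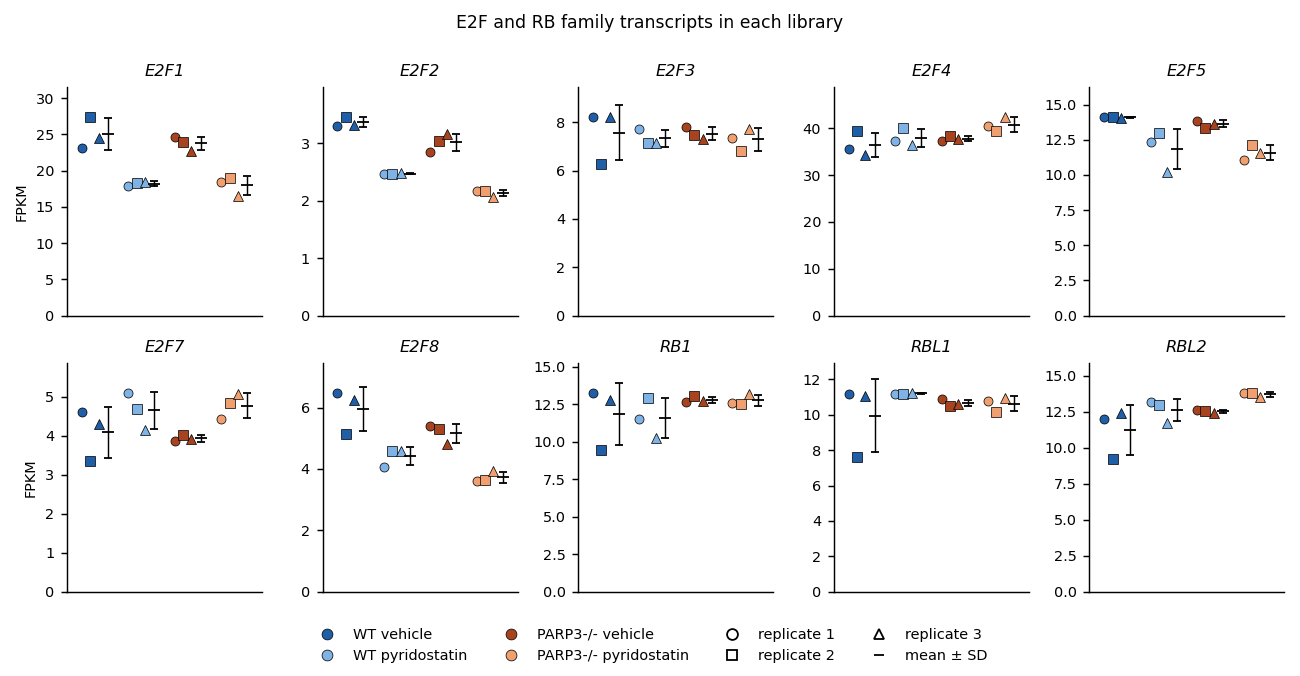
FPKM of the 10 members in each library, with symbols for the replicates and the mean ± SD of each group (n = 3) as bars. The 6 pyridostatin libraries of E2F1, E2F2, E2F5 and E2F8 lie below the vehicle libraries of their genotype, and the square of WT vehicle replicate 2 is the lowest point of RB1, RBL1 and RBL2.

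The pocket proteins showed no difference that passed the test. RB1, the retinoblastoma protein, measured 13.3, 9.47 and 12.8 FPKM in WT with vehicle, 11.5, 12.9 and 10.2 FPKM in WT with pyridostatin, and between 12.5 and 13.1 FPKM in the 6 libraries labelled PARP3-/-. RBL1 (p107) lay between 10.2 and 11.2 FPKM in 11 libraries and at 7.59 FPKM in WT vehicle replicate 2. RBL2 (p130), the pocket protein most tied to DREAM, measured 12.01, 9.24 and 12.4 FPKM in WT with vehicle, 13.2, 13.0 and 11.7 FPKM in WT with pyridostatin, and 12.6, 12.5 and 12.4 against 13.8, 13.8 and 13.5 FPKM in PARP3-/-. In PARP3-/- the RBL2 groups did not overlap, but the difference of 0.12 did not pass (adjusted p = 0.50). Over both genotypes the pyridostatin difference was -0.01 for RB1 (95% interval -0.18 to 0.15), 0.09 for RBL1 (-0.08 to 0.25) and 0.14 for RBL2 (0.01 to 0.28, adjusted p = 0.15). Without WT vehicle replicate 2 these became -0.08, 0.0024 and 0.08.

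Counted together with pyridostatin, 3 of the 10 members were lower in WT and 0 higher, against 1.38% of all tested genes lower and 2.79% higher. A fit of the WT libraries alone called none of the 3, and 65 genes in place of 495 over all. In PARP3-/- 3 members (again E2F1, E2F2 and E2F8) were lower and 0 higher, against 2.52% and 3.05% of all genes. With both genotypes averaged 4 were lower and 0 higher, against 6.24% and 7.71%, and no member passed the fold threshold of the study's own analysis, an absolute log2 difference above 1. The median difference of the 10 members was -0.03, beside 0.00093 over all tested genes, with 4 members that fell and 6 that did not pass, at -0.04 to 0.19. A shift of all libraries to a common median moved the share of higher genes among those called from 55.3% to 39.9%, and E2F1, E2F2, E2F5 and E2F8 stayed lower under that scaling. Bulk RNA does not tell fewer cells in a phase of the cycle apart from less RNA per cell.

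**Figure D3:**
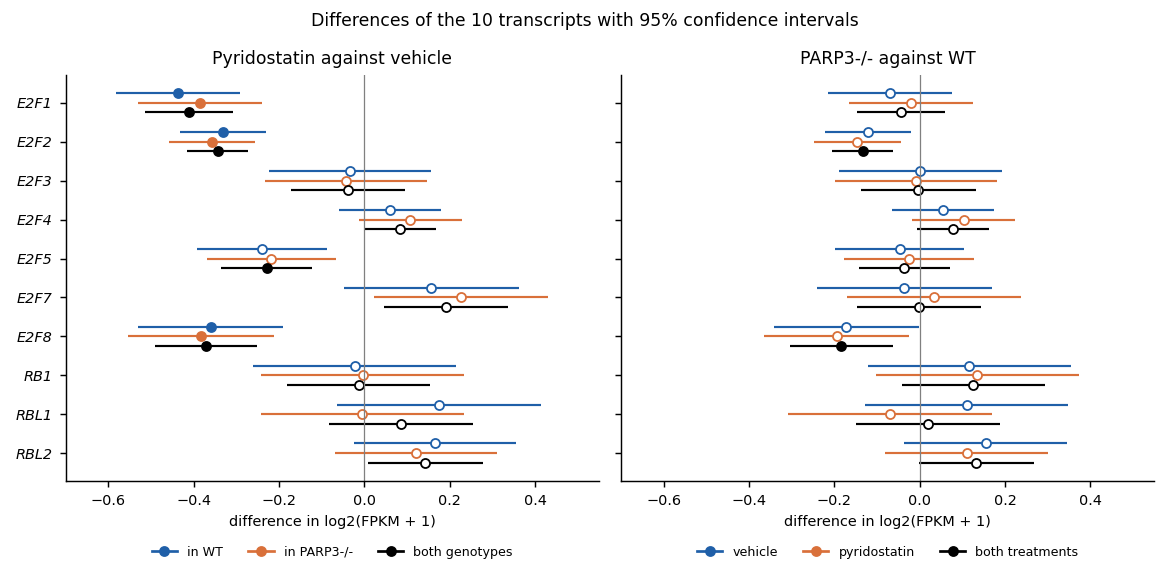
Differences in log2(FPKM + 1) with 95% confidence intervals from limma for pyridostatin against vehicle (left) and PARP3-/- against WT (right), filled where the adjusted p is under 0.05. The intervals of E2F1, E2F2, E2F5 and E2F8 lie below 0 on the left, and on the right the filled points are E2F2 and E2F8 with both treatments averaged.

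The balance of members within a library shifted with these changes. These ratios were chosen after the values were seen and are given with no test. E2F1 made up 25.9 ± 1.76% of the summed FPKM of the 7 E2F transcripts in WT with vehicle and 21.0 ± 1.03% with pyridostatin, and in PARP3-/- 25.1 ± 0.654% and 20.4 ± 1.68% (SD, n = 3). The share of E2F4 was 37.7 ± 1.82% and 43.7 ± 0.771% in WT and 39.8 ± 0.762% and 46.2 ± 1.36% in PARP3-/-. The ratio of E2F7 to E2F8 went from 0.684 ± 0.0294 to 1.06 ± 0.177 in WT and from 0.764 ± 0.0495 to 1.28 ± 0.0507 in PARP3-/-, so the order of the atypical members turned over in both genotype means. The lowest treated library, at 0.906, lay above the highest vehicle library, at 0.814.

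**Figure D4:**
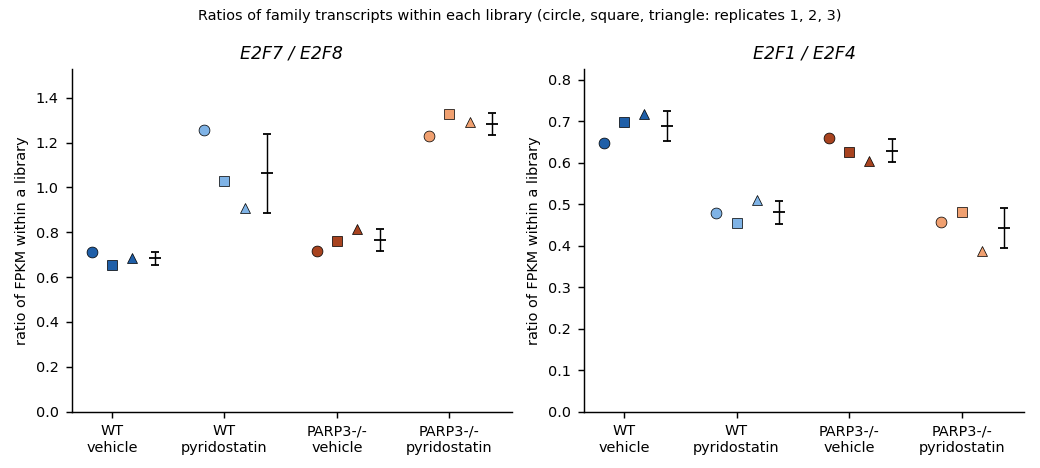
Ratio of FPKM of E2F7 to E2F8 (left) and of E2F1 to E2F4 (right) within each library, with the mean ± SD of each group (n = 3) as bars. E2F7 over E2F8 is 0.653 to 0.814 with vehicle and 0.906 to 1.33 with pyridostatin, and E2F1 over E2F4 is 0.603 to 0.717 with vehicle and 0.388 to 0.509 with pyridostatin.

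The response of the members to pyridostatin was not shown to differ between genotypes. The interaction, the difference between the pyridostatin effect in PARP3-/- and in WT, was 0.05 for E2F1 (95% interval -0.16 to 0.26), -0.02 for E2F2 (-0.17 to 0.12), 0.02 for E2F5 (-0.19 to 0.24) and -0.02 for E2F8 (-0.26 to 0.22). Over the 10 members it ran from -0.18 for RBL1 (-0.52 to 0.16) to 0.07 for E2F7 (-0.22 to 0.36). The RBL1 value includes WT vehicle replicate 2, at 7.59 FPKM. Without WT vehicle replicate 2 the sign turned for E2F1 (-0.02) and E2F8 (0.06), and E2F2 was at -0.04. With 3 libraries per group, differences within these intervals remain compatible with the data. In limma no gene passed (0%, with 521 of 11881 genes and 0 of the 10 members at an unadjusted p under 0.05).

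Between genotypes 2 members were lower in PARP3-/- when both treatments were averaged, E2F2 and E2F8. E2F2 differed by -0.13 (SE 0.03, adjusted p = 0.0146) and E2F8 by -0.18 (SE 0.05, adjusted p = 0.0382), beside 6.95% of all tested genes lower and 12.2% higher, and no member was higher. For the 10 members the share called, 2 lower, is thus read against a genome-wide background in which genotype differences were common. With vehicle alone 0 members passed (9.41% of all genes did, 2 members at an unadjusted p under 0.05), and with pyridostatin alone 0 passed (10.9% of all genes, again 2 members unadjusted). E2F2 stood at 89.6% of WT with vehicle (adjusted p = 0.14) and at 86.5% with pyridostatin (adjusted p = 0.069, or 0.032 without WT vehicle replicate 2), and in both treatments every PARP3-/- library lay below every WT library. E2F8 stood at 86.6% with vehicle, where the ranges overlapped (adjusted p = 0.23), and at 84.5% with pyridostatin, where they did not (adjusted p = 0.15).

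The E2F8 difference with vehicle and over both treatments was larger without WT vehicle replicate 2. Without it E2F8 was lower in PARP3-/- with vehicle (-0.26, adjusted p = 0.020) and over both treatments (-0.23, adjusted p = 0.0028). With pyridostatin the difference stayed at -0.19, since that comparison holds no WT vehicle library. Only its adjusted p moved, from 0.15 to 0.034, in the model shared by all groups. The call over both treatments was lost for E2F8 when any of 9 other libraries was left out (adjusted p from 0.050 to 0.090), and kept for E2F2 in every alternative in which it was tested (adjusted p from 0.0053 to 0.037). E2F4, at 0.08 over both treatments (adjusted p = 0.20), became 0.11 (adjusted p = 0.029) without that library. A shift to a common median moved the share of higher genes among all called from 63.7% to 45.7%, and E2F2 and E2F8 stayed lower under it.

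E2F8 had the widest range of group means among the members, 0.55 on the log2(FPKM + 1) scale, followed by E2F2 (0.48) and E2F1 (0.46). The 5 other tested genes whose pattern was most like it across the 12 libraries, by Pearson's r, were SQLE and HMGCS1, enzymes of cholesterol synthesis (r = 0.97 and 0.95), DEPDC1B (0.96), IFRD1 (0.94) and RRM2, a subunit of ribonucleotide reductase (0.93). IFRD1 went from 24.8 to 19.8 FPKM with pyridostatin in WT and from 20.9 to 17.0 FPKM in PARP3-/-. RRM2 went from 88.3 to 80.4 FPKM and from 82.5 to 73.6 FPKM. The libraries share their treatment groups and depth, so these r are a description.

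Among the other genes of the pathway, most of the listed G1/S targets of E2F moved in the same direction as E2F1 and E2F2. The members E2F7 and RBL1, named above as E2F targets, did not (0.19 and 0.09, neither passing). The list held 30 genes that E2F is known to control at the G1/S transition, most of them for DNA replication and nucleotide supply. The cyclin E genes CCNE1 and CCNE2 were not in it and are given with the kinases below. With pyridostatin over both genotypes 28 were lower and 0 higher, against 6.24% and 7.71% of all tested genes. The median difference of the 30 was -0.23. The largest falls were in GINS2 (-0.43, adjusted p = 0.00022) and CDC45 (-0.37, adjusted p = 0.00021), parts of the replicative helicase, and in MCM6 (-0.36, adjusted p = 2.2e-05) and MCM2 (-0.32, adjusted p = 4.4e-05), subunits of its MCM ring. In FPKM, GINS2 went from 62.6 to 45.0 in WT and from 59.6 to 44.8 in PARP3-/-. WT vehicle replicate 2 was the highest of its group in GINS2 (70.9 beside 58.5 and 58.3) and CDC45 (26.8 beside 24.2 and 22.3). It was the lowest in MCM6 (35.1 beside 35.8 and 37.2), and MCM2 differed little (47.0 beside 46.8 and 45.8). Without that library 28 of the 30 were still lower over both genotypes. PCNA and TYMS were not lower and did not pass. PCNA went from 391 to 412 FPKM in WT and from 383 to 396 FPKM in PARP3-/-. TYMS went from 152 to 153 FPKM and from 141 to 149 FPKM. Within a genotype 13 of the 30 were lower in WT (1.38% of all genes) and 19 in PARP3-/- (2.52% of all genes), and 0 were higher in either. In the interaction 0 of the 30 passed, with 2 at an unadjusted p under 0.05 (limma). The E2F motif lay in the promoters of 16 of the 27 that had one, or 59.3%.

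Of 22 mitotic genes known as DREAM targets, 15 were lower over both genotypes and 0 higher, against 6.24% and 7.71% of all tested genes. The median of the 22 was -0.15. Examples were CDC20 (-0.28, adjusted p = 0.0032), the activator of the anaphase-promoting complex, the kinesin KIF20A (-0.27, adjusted p = 0.00057), AURKB (-0.25, adjusted p = 0.0059) and BIRC5 (-0.22, adjusted p = 0.0047), both parts of the chromosomal passenger complex. WT vehicle replicate 2 was the highest of its group in CDC20 (151 FPKM), AURKB (93.5) and BIRC5 (85.0), and the lowest in KIF20A (33.3). Without that library 18 of the 22 were lower over both genotypes. TTTGAA lay in the promoters of 12 of the 18 with an entry, or 66.7%. Within a genotype 4 were lower in WT (1.38% of all genes) and 11 in PARP3-/- (2.52% of all genes), and in the interaction 0 of the 22 passed, with 3 at an unadjusted p under 0.05 (limma). MYBL2, which joins the MuvB core in S phase, fell by 0.26 (adjusted p = 0.00099), and FOXM1, which joins it later, fell by 0.11 (adjusted p = 0.035). The 5 genes of the MuvB core itself (LIN9, LIN37, LIN52, LIN54 and RBBP4) did not pass.

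The genes that act on the pocket proteins moved in both directions. CDKN1A, the CDK inhibitor p21, rose most, from 85.6, 94.9 and 80.5 FPKM to 194, 196 and 189 FPKM in WT and from 95.6, 102 and 102 FPKM to 198, 211 and 215 FPKM in PARP3-/-. Its difference over both genotypes was 1.10 (SE 0.04, adjusted p = 5.4e-07). The other tested CDK inhibitors were lower: CDKN2C (-0.37, adjusted p = 5.5e-05), CDKN2D (-0.27, adjusted p = 0.0050) and CDKN1B (-0.15, adjusted p = 0.043). CDKN2A and CDKN2B were listed at 0 in all 12 libraries, and CDKN1C was below the expression filter, as was CCND2 (cyclin D2). Of the 7 tested cyclin and CDK genes that phosphorylate pocket proteins, CCND1 (cyclin D1) was higher by 0.17 (adjusted p = 0.012), and CCNE2 (cyclin E2, -0.21, adjusted p = 0.027) and CDK2 (-0.19, adjusted p = 0.0029) were lower. CCNE1 (cyclin E1) did not pass. It went from 19.7 to 19.1 FPKM in WT and from 21.8 to 22.0 FPKM in PARP3-/-.

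Among the partners and corepressors of the family, genes passed in both directions. TFDP1, the main DP partner, was at 57.0 FPKM in WT with vehicle and 53.1 FPKM with pyridostatin, and at 56.9 and 51.7 FPKM in PARP3-/- (-0.12, adjusted p = 0.040). TFDP2 was at 2.15 and 2.67 FPKM in WT and at 2.27 and 2.53 FPKM in PARP3-/- (0.16, adjusted p = 0.023). The more abundant partner was thus lower and the less abundant one higher. Of 7 corepressor genes ARID4A, an RB1-binding protein, was higher, at 2.57 and 3.47 FPKM in WT and 3.01 and 3.38 FPKM in PARP3-/- (0.23, adjusted p = 0.027), and the histone methyltransferase SUV39H1 lower (-0.13, adjusted p = 0.036).

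Between genotypes, over both treatments, the largest pathway difference was in CCND3 (cyclin D3), at 111 FPKM in WT and 78.3 FPKM in PARP3-/- with vehicle (-0.43, adjusted p = 1.6e-05). CCNE1 (0.17, adjusted p = 0.0095) and CCND1 (0.16, adjusted p = 0.0091) were higher in PARP3-/-, as was CDKN1A (0.15, adjusted p = 0.023), and CDKN2D was lower (-0.21, adjusted p = 0.014). FOXM1 was lower by 0.14 (adjusted p = 0.0095). Beside 6.95% of all genes lower and 12.2% higher, 4 of the 30 G1/S genes were lower (ORC1, RRM2, RRM1 and MCM6) and 1 higher, and of the 22 DREAM targets 5 were lower, among them CCNB1, CCNB2 and NUSAP1, and 1 higher (AURKB, 0.17, adjusted p = 0.023). Neither the DP partners nor the corepressors held a gene that passed.

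**Figure D5:**
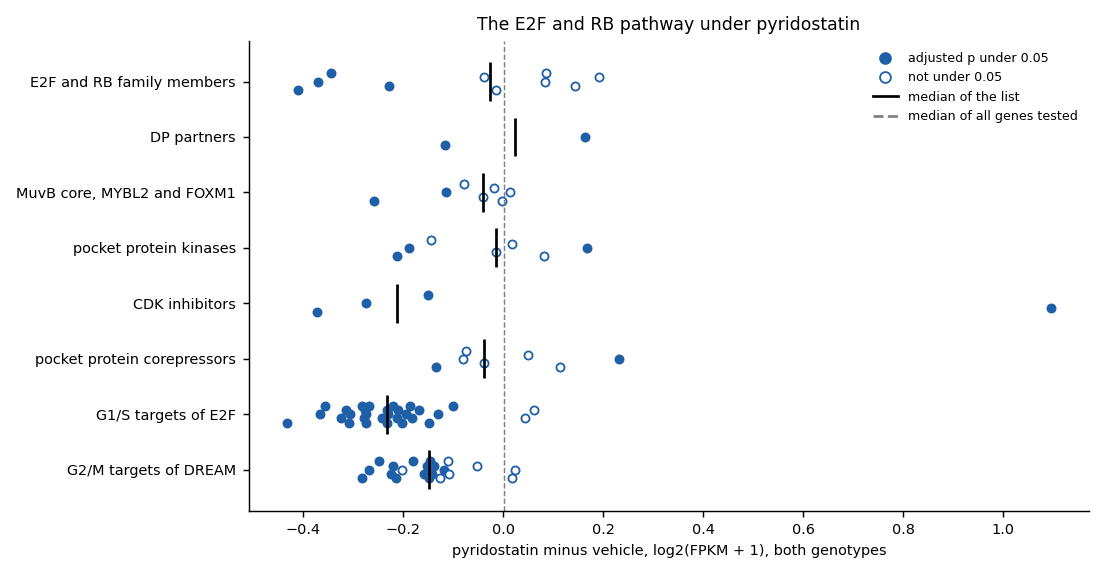
Difference in log2(FPKM + 1) between pyridostatin and vehicle, averaged over both genotypes, for each tested gene of the family and of 7 pathway lists, filled where the adjusted p is under 0.05. The G1/S list lies around a median of -0.23 and the DREAM list around -0.15, beside a median of 0.00093 for all tested genes (dashed), and the point at 1.10 is CDKN1A.

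The libraries were of similar depth, estimated from the lowest FPKM values as 24100000 to 34100000 reads, an approximate figure since 17.3% to 21.7% of low values lay at the step used. The epithelial markers KRT8, KRT18 and KRT7 were at 1504 to 3375 FPKM and CDH1 at 9.85 to 16.7 FPKM, EPCAM was low at 0.879 to 2.36 FPKM, and PTPRC, PECAM1 and ALB, markers of other cell types, stayed at or below 0.0360 FPKM. COL1A1, a fibroblast marker, was at 0.572 to 0.993 FPKM in WT and 1.21 to 1.63 FPKM in PARP3-/-, and every PARP3-/- library lay below every WT library in EPCAM and CDH1. Their part in the genotype differences of E2F2 and E2F8 was not tested.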

How the data were processed

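RNA-seq of A549 cells (12 libraries, stranded mRNA, single-end reads of 75 bases) was deposited by the authors as FPKM, 1 column per library, with no pooling. The submitters' processing notes name bcl2fastq 2.16, STAR 2.5 and Cufflinks, and the builds mm9 and hg19 without their roles. The annotation is not given in the sources used here. The authors tested counts with DESeq2, which was not repeated. Here limma 3.58.1 in R 4.3.3 fitted 1 model of the 4 groups to log2(FPKM + 1) for the 11881 genes averaging 1 FPKM or more (eBayes with a trend), without further scaling. Calls were made at a Benjamini-Hochberg adjusted p under 0.05 over all genes. Effects over both genotypes or treatments are averages of the contrasts within each. The fit was tested on simulated data.

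The members, pathway lists and tests were chosen with earlier results of these data known. All members were named in every library, with both DP partners and CDKN1A. From each other list up to 4 genes with the largest difference that passed were named for pyridostatin and for genotype, and the 5 genes most like the member with the widest range. Alternatives were a pseudocount of 0.1, no filter or an average of 5 FPKM or more, quantile normalization, a common median, only the libraries compared, eBayes without a trend, a replicate block, each library left out and, added after the data were seen, a transcript-length trend removed. Lengths came from GENCODE release 29 (93.7% of tested genes) and promoters from RefSeq. Python 3.11.15, numpy 2.4.6, pandas 2.3.3 and matplotlib 3.10.9 were used.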

Additional observations from a re-analysis of the deposited data

How the results depend on the processing

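Over the 12 calls of a member in a comparison, 0 of 238 alternative values changed direction and 23 lost the call. Of all 966 alternative values of the members' fold changes given in the text, 888 kept their direction and their side of the threshold. The interactions of RBL1 and E2F7 were not among them. The falls of E2F1, E2F2, E2F5 and E2F8 over both genotypes passed in every alternative in which they were tested. E2F2, E2F7 and E2F8 average below 5 FPKM and drop out of the test under that filter, which leaves 1 member called for pyridostatin in WT, 1 in PARP3-/-, 2 over both genotypes and 0 for genotype over both treatments. Fitting only the libraries of the comparison left 0 members called for pyridostatin in WT (adjusted p of 0.072 for E2F1 and 0.054 for E2F2). It gave 1 member for genotype with pyridostatin, as did quantile normalization, a common median and eBayes without a trend. Without a filter on low values 1 member was called for genotype over both treatments. Leaving out each library in turn gave 0 to 1 members for genotype with vehicle, 0 to 2 with pyridostatin and 1 to 3 over both treatments, the highest values all without WT vehicle replicate 2. Over all alternatives the G1/S count ran from 26 to 28 and the DREAM count from 11 (quantile normalization) to 18 (without WT vehicle replicate 2).

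Deviations of same-numbered libraries from their group means had correlations from -0.12 to 0.22 across genes. Such values cannot tell whether the libraries were paired. The replicate block left 1 member called for genotype over both treatments and 2 for pyridostatin in WT. E2F8 had an adjusted p of 0.062 and 0.054 there (limma). The block changed no other call of a member.

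Values near 0 changed sign. With each library left out, the genotype difference over both treatments ran from -0.061 to 0.026 for E2F3, from -0.055 to 0.036 for E2F7 and from -0.063 to 0.063 for RBL1, and that of RBL1 was -0.0142 under quantile normalization, -0.0134 with a common median and -0.0110 with the length trend removed. The pyridostatin difference ran from -0.148 to 0.025 for E2F3 and -0.163 to 0.060 for RB1 in WT, from -0.080 to 0.00081 for E2F3, -0.025 to 0.0081 for RB1 and -0.023 to 0.024 for RBL1 in PARP3-/-, and from -0.084 to 0.028 for RB1 over both. The interaction ran from -0.015 to 0.109 for E2F1, -0.055 to 0.00066 for E2F2 (0.0158 under quantile normalization), -0.071 to 0.085 for E2F5 and -0.078 to 0.065 for E2F8. The causes were not tested. Over all genes, some counts moved by over 1.5 times. For pyridostatin in WT, 495 became 65 with only its libraries. It became 178, 237 and 252 without WT pyridostatin replicate 1, WT pyridostatin replicate 3 and WT vehicle replicate 3. For pyridostatin in PARP3-/-, 661 became 254 to 346 without a PARP3-/- library other than pyridostatin replicate 1, which gave 475. It became 1559 without WT vehicle replicate 2. For genotype with vehicle, 1118 became 532 with only its libraries. For genotype with pyridostatin, 1297 became 806 to 842 without WT pyridostatin replicate 1 or 3 or PARP3-/- pyridostatin replicate 2 or 3. It became 2298 without WT vehicle replicate 2.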
